A study of Mus musculus with 25 samples.

Results

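The transforming growth factor beta (TGF-beta) system was examined as 10 genes, which encode 3 ligands (Tgfb1, Tgfb2, Tgfb3), 3 receptors (Tgfbr1, Tgfbr2, Tgfbr3), 3 latent binding proteins (Ltbp1, Ltbp3, Ltbp4) and the matrix protein Tgfbi. They were taken by name, through their Ensembl identifiers, from a list chosen with earlier results of these data known. All 10 had a row among the 11867 genes of the lung table, and 9 had one among the 12661 genes of the skin table. Tgfb1 was not analysed here in skin. The RNA came from macrophages and fibroblasts sorted from lung and skin of C57BL/6 mice. Depleted mice were Mrp8_CRE; Rosa26_DTR, in which Cre recombinase under the Mrp8 (S100a8) promoter, active chiefly in neutrophils and their precursors, is combined with a diphtheria toxin receptor allele. Control mice were Mrp8_WT; Rosa26_DTR. Both genotypes carried Rosa26_DTR and both received 10 µg per kg of diphtheria toxin into the peritoneum for 7 days, so the controls were exposed to the toxin too. The labels give no age. Lung macrophages gave 3 libraries from depleted and 3 from control mice, and lung fibroblasts 3 and 3. Skin macrophages gave 4 from depleted and 3 from control mice, skin fibroblasts 3 and 3, and replicates keep the numbers of their labels. Nothing in the labels says that the replicates are separate animals, so each p-value reflects library-to-library spread alone, which may be technical.

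TGF-beta is secreted bound to its own propeptide, in a latent form that cannot reach its receptors. Latent binding proteins of the Ltbp family attach this complex to the extracellular matrix, where integrins or proteases release the ligand. Free ligand binds the type II receptor Tgfbr2, which phosphorylates the type I receptor Tgfbr1, and Tgfbr1 in turn phosphorylates Smad2 and Smad3. In lung and skin the system is known for driving fibroblasts to make collagen and for restraining inflammation, and macrophages and fibroblasts are both known sources of ligand.

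Lung libraries held 124075 to 385925 estimated reads and skin libraries 6553115 to 27259903. The values are linear and normalised by the authors, and 1 read was worth 2.997 to 6.81 units in lung and 0.0371 to 0.162 units in skin, so a lung value under about 20 rests on a handful of reads. Summed over the same 16 macrophage markers, depleted lung macrophages held 36013 to 40520 parts in 1000000 of the library total (ppm) and control lung macrophages 22227 to 33380. The library labelled skin control macrophages 1 held 141 ppm of macrophage markers and 112134 of fibroblast markers, and the one labelled skin control macrophages 5 held 140 and 135996. Cd68, a macrophage gate marker, stood at 0.390 and 0.905 in those libraries, against 1887 in skin control macrophages 3. Library 1 goes against its label. For library 5 the labels differ: the cell type reads macrophages, while the title contains MFIBRO. These 2 libraries are kept apart, which leaves 1 control library for skin macrophages. Their values for the 9 genes were at or near those of fibroblasts: Tgfb2 stood at 190.1 and 154.5, Tgfbr2 at 248 and 269.6 and Ltbp4 at 257.8 and 296.5.

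The promoter windows of 4 of these genes are printed to set both genes that were higher in lung macrophages, Tgfbi and Tgfbr1, beside 2 of those that were lower there than in fibroblasts, the partner receptor Tgfbr2 and the binder Ltbp4. Each window runs from 250 bases before to 50 bases after a transcription start in RefSeq (GRCm38.p6), 5′ to 3′ on the strand of the gene. Windows were matched for 8 of the 10 genes, and Tgfb3 and Tgfbr3 were not matched. Where a gene had several windows, the first is shown. The capitals mark the Sp1 box GGGCGG or the core of the PU.1 motif GAGGAA, on either strand. PU.1 is a transcription factor of the myeloid lineage and Sp1 a general activator of GC-rich promoters. The windows, in order, are chr13:56609336-56609635 (plus strand), chr4:47352972-47353271 (plus strand), chr9:116175314-116175613 (minus strand) and chr7:27337563-27337862 (minus strand).
Tgfbi: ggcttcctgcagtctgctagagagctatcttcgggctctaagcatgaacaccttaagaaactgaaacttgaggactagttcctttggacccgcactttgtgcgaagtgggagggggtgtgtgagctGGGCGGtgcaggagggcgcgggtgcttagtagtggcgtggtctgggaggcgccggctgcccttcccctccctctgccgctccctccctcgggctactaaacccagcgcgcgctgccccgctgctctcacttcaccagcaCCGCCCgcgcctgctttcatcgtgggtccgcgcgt
Tgfbr1: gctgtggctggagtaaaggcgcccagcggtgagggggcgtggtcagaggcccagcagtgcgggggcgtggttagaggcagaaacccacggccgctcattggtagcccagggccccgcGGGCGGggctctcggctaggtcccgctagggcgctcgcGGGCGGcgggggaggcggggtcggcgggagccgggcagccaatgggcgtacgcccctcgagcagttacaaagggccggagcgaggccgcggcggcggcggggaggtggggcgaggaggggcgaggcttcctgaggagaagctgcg
Tgfbr2: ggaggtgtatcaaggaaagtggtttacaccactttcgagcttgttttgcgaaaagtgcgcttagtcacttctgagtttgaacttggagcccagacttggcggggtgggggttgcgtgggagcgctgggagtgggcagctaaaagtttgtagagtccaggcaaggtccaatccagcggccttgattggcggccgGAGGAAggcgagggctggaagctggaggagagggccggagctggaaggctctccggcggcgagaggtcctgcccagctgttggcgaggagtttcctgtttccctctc
Ltbp4: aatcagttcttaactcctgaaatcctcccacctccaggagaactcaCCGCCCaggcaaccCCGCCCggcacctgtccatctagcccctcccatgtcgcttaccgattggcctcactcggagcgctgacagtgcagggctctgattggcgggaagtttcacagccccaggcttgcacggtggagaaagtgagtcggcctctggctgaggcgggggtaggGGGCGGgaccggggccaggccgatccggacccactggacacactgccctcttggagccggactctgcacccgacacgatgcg
The Sp1 box occurs in 35.7% of 32851 such windows and the PU.1 core in 28.3%. The Tgfbi window held 2 Sp1 boxes, the Tgfbr1 window 2 and the Ltbp4 window 3. The Tgfbr2 window held a single PU.1 core, 57 bases before the start, and no Sp1 box. Neither printed window of a gene higher in lung macrophages held the PU.1 core, and a second Tgfbr1 window, not printed, held one 95 bases before its start. Also searched on both strands were the AP-1 site TGANTCA (in 7.81% of all windows), the E-box CACGTG (7.15%) and the TATA box TATAAA (13.6%). Of these the Ltbp3 window held an AP-1 site 6 bases before the start, and the Tgfb2 window held an E-box 51 bases and a TATA box 31 bases before the start. The GC content was 63.3% for Tgfbi, 74.7% for Tgfbr1, 59.0% for Tgfbr2 and 64.3% for Ltbp4, against a median of 52.7% over all windows.

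Macrophages were first set against fibroblasts, which asks which cell type supplies each component. In lung of depleted mice, of the 10 genes, 2 were higher in macrophages (Tgfbi, Tgfbr1), 5 were lower (Tgfb3, Ltbp1, Ltbp4, Tgfbr2, Tgfbr3) and 3 did not pass the test. In lung of control mice 2 were higher and 6 lower, with Ltbp3 added to the same genes. In skin of depleted mice, of 9 genes, only Tgfbi was higher, 7 were lower (Tgfb2, Tgfb3, Ltbp1, Ltbp3, Ltbp4, Tgfbr2, Tgfbr3), and Tgfbr1 did not pass. Over all genes tested the share called was 23.0% in lung of depleted mice (12.5% higher, 10.6% lower), 23.2% in lung of control mice (12.2% higher, 11% or 1305 genes lower) and 24.0% in skin (11.4% higher, 12.7% lower). The median log2 fold change of the genes of the system was −1.84, −2.26 and −4.54 in that order, and that of all genes −0.06, −0.08 and −0.11. With Tgfb3 and Tgfbr3 put at the bounds given below the first of these was again −1.84. Calls are at a Benjamini-Hochberg adjusted p below 0.05 over all genes in limma, on log2 of the value plus a pseudocount, which understates the change of low genes. In bulk RNA, fewer cells of a type and less RNA per cell cannot be told apart. Fibroblast markers (15 of 16 in the lung table) summed to 222.5 to 234.4 ppm in depleted lung macrophages and 8406 to 10670 in depleted lung fibroblasts, and macrophage markers to 398.4 to 728.4 ppm in those fibroblasts. In skin, fibroblast markers summed to 394 to 1580 ppm in depleted macrophages and 72062 to 98410 in depleted fibroblasts. Markers of other cells differed too in control lung. Neutrophil markers summed to 8561 to 17502 ppm in macrophages and 370.3 to 522.7 in fibroblasts. B and plasma cell markers summed to 774.3 to 1942 and 30.4 to 36.6 in that order. T cell markers summed to 77.3 to 186.6 and 16.6 to 21.8, and platelet and megakaryocyte markers to 419.2 to 621.2 and 3.95 to 30.5. Sums for the other marker lists overlapped there. In depleted lung only keratinocyte sums overlapped. Lung epithelial markers summed to 9199 to 21433 ppm in macrophages and 2008 to 5656 in fibroblasts. Neutrophil, B, T and platelet sums were higher in macrophages too, and endothelial, mast cell and smooth muscle sums lower. In depleted skin, platelet and megakaryocyte markers summed to 637.1 to 1163 and 5.02 to 37.4, in that order. B and T cell sums were higher too, and neutrophil, lung epithelial and smooth muscle sums lower. The part of such admixed RNA in the values was not tested.

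**Figure D1:**
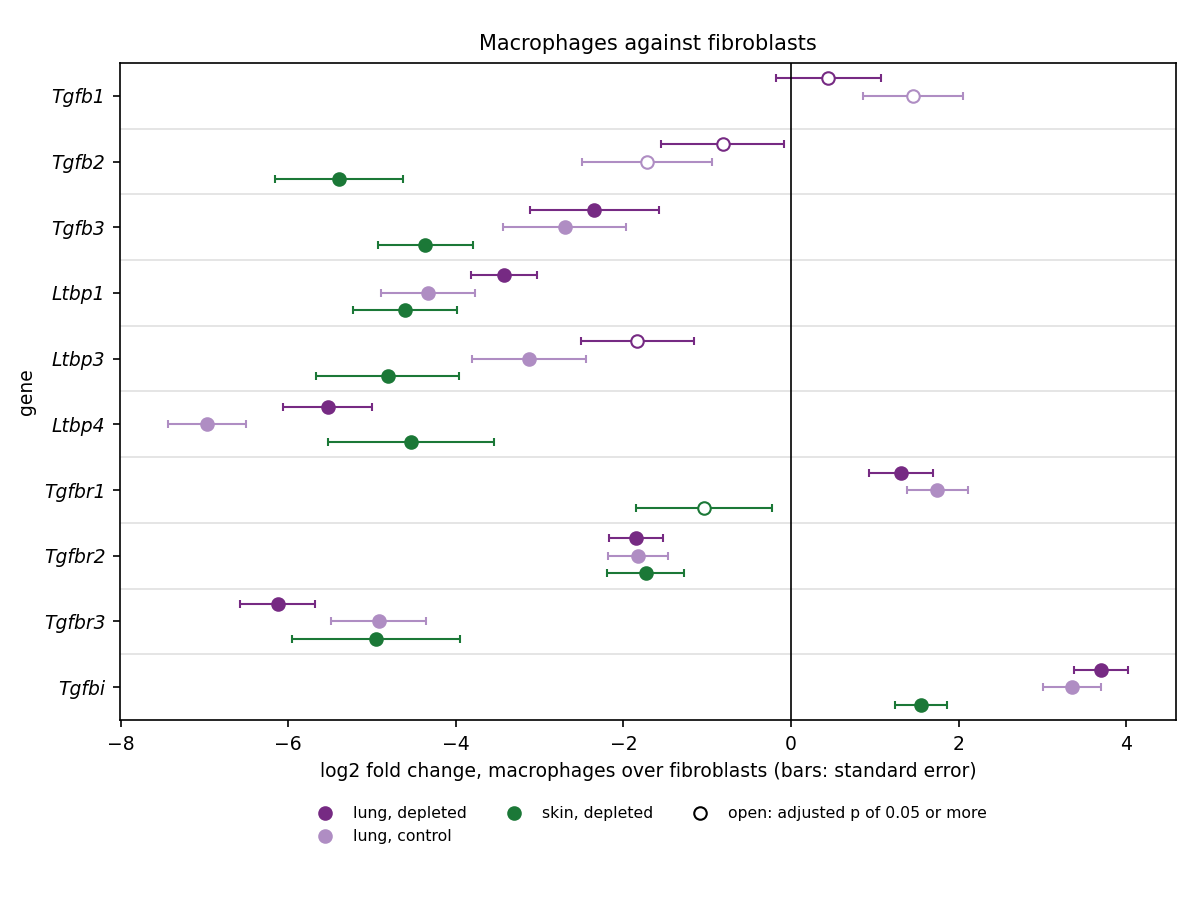
Log2 fold change of each gene, macrophages over fibroblasts, on the x axis, in lung of depleted and control mice and in skin of depleted mice. Bars are standard errors and open points did not pass an adjusted p of 0.05. Tgfbi lies above 0 in all 3 comparisons and Tgfbr1 in lung only, Tgfb1 lies above 0 in lung as open points, and the latent binders, Tgfb2, Tgfb3, Tgfbr2 and Tgfbr3 lie below 0. The size of a fitted change that rests on 0 to 3 reads in a group depends on the pseudocount.

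Among the ligands, Tgfb1 (chromosome 7, 25687002 to 25705077 in GRCm38), the main ligand of immune cells, was measured in lung on 1 to 13 estimated reads a library. Its values were 40.0, 9.31 and 32.45 in depleted macrophages and 17.0, 17.6 and 15.8 in depleted fibroblasts. In control mice they were 61.7, 19.5 and 44.5 in macrophages and 15.7, 8.67 and 16.5 in fibroblasts. Macrophage values lay above all fibroblast values in control mice, while in depleted mice macrophages 2 lay below the fibroblasts. The log2 fold change was 0.44 ± 0.62 in depleted mice (SE, adjusted p = 0.664) and 1.46 ± 0.59 in control mice (SE, adjusted p = 0.0843), so neither passed. Without control macrophages 2 the comparison in control mice passed (1.91, adjusted p = 0.0439).

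Tgfb2 (chromosome 1, 186622792 to 186705989), a ligand that needs the coreceptor Tgfbr3 for efficient binding, passed in skin and not in lung, and the organs were not tested against each other. Skin values were 0.0809, 4.84, 5.51 and 1.06 in depleted macrophages and 205.7, 89.9 and 109.5 in depleted fibroblasts. The groups did not overlap, and macrophages were lower by 42.0-fold (log2 fold change −5.39 ± 0.76, adjusted p = 0.000587). In lung it rested on 0 to 9 reads a library, with 15.4, 3.10 and 8.83 in depleted macrophages and 10.2, 9.72 and 29.35 in depleted fibroblasts. These are 3 reads over the macrophages and 11 over the fibroblasts, a ratio of 3.57 lower (95% interval 0.943 to 19.9, counting error only). It did not pass in depleted mice (adjusted p = 0.471) or in control mice (−1.72 ± 0.77, adjusted p = 0.119).

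Tgfb3 (chromosome 12, 86056745 to 86079041) had 0 reads in all 3 depleted lung macrophage libraries, against values of 30.6, 44.7 and 5.18 in depleted lung fibroblasts. With a floor of 3 reads over the group it was at least 5.19-fold lower in macrophages (adjusted p = 0.0346). It kept that call only without depleted fibroblasts 3 and lost it without any other library, with log2 fold changes from −3.22 to −1.78 over the 6 fits. In control lung it had 2 reads over the macrophages and 19 over the fibroblasts, a ratio of 13.98 lower (95% interval 3.37 to 123.7; adjusted p = 0.00967). That call was lost without control macrophages 2 (−2.21) or control fibroblasts 2 (−2.31). In skin the reads were ample: it was 5.74, 7.03, 14.4 and 2.15 in depleted macrophages and 123.3, 138.1 and 184.8 in depleted fibroblasts, which was 20.6-fold lower in macrophages (−4.37 ± 0.56, adjusted p = 0.000328).

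**Figure D2:**
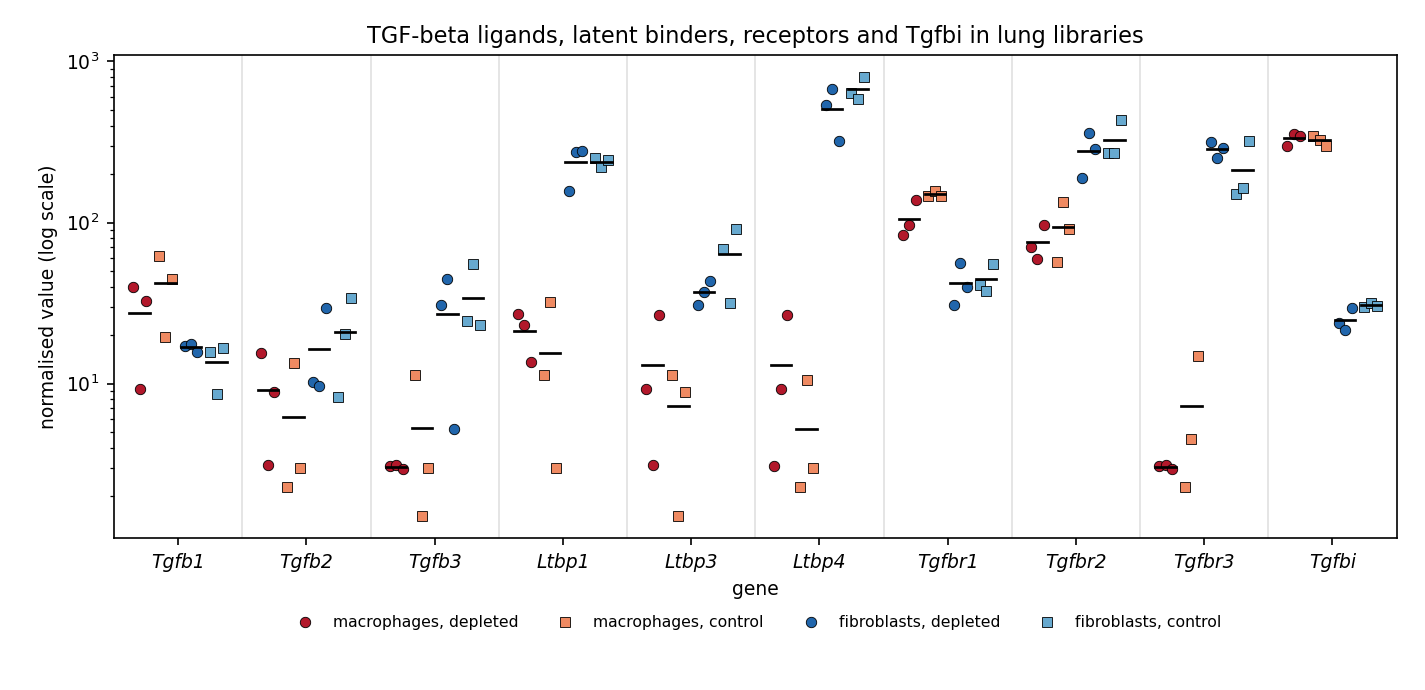
Deposited value of each gene on a log axis, 1 point per lung library, with macrophages left of fibroblasts and depleted left of control mice; short horizontal bars are group means. Tgfbi lies between 298.4 and 356.8 in macrophages and between 21.4 and 31.8 in fibroblasts.

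The receptors did not go together. Tgfbr1 (chromosome 4, 47353222 to 47414931), the type I receptor kinase, was 83.05, 96.2 and 138.4 in depleted lung macrophages and 30.6, 56.35 and 39.8 in depleted lung fibroblasts. It was 146.9, 157.3 and 145.5 in control macrophages and 40.9, 37.6 and 55.3 in control fibroblasts. All macrophage values lay above all fibroblast values, and the log2 fold change was 1.31 ± 0.38 in depleted mice (adjusted p = 0.0190) and 1.75 ± 0.37 in control mice (adjusted p = 0.00108). The call in depleted mice was lost without depleted macrophages 3 (1.11, adjusted p = 0.0940), fibroblasts 1 (1.11, adjusted p = 0.0791) or fibroblasts 3 (1.29, adjusted p = 0.0597). In skin, Tgfbr1 spread over 3.92, 33.0, 29.2 and 88.7 in depleted macrophages, around the 50.7, 64.3 and 43.7 of depleted fibroblasts (−1.04 ± 0.81, adjusted p = 0.397).

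Tgfbr2 (chromosome 9, 116084293 to 116175360), the type II receptor that binds the ligand first, went the other way. In lung it was 70.75, 58.95 and 97.2 in depleted macrophages and 189.5, 359.5 and 284.9 in depleted fibroblasts, 3.60-fold lower in macrophages (−1.85 ± 0.32, adjusted p = 0.000358). It was 56.5, 133.3 and 91.6 in control macrophages and 270.2, 268.7 and 436.2 in control fibroblasts, 3.55-fold lower in macrophages (−1.83 ± 0.35, adjusted p = 0.000485). All lung macrophage values lay below all lung fibroblast values. In skin it was 47.3, 33.2, 45.65 and 39.8 in depleted macrophages and 245.4, 58.8 and 186.5 in depleted fibroblasts (−1.74 ± 0.46, adjusted p = 0.0193). The skin groups do not overlap, but depleted fibroblasts 4 lies near the macrophages, and the call was lost without fibroblasts 2 (−1.33), fibroblasts 5 (−1.53) or macrophages 2 (−1.64).

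Per kilobase of exon, the ratio of Tgfbr1 to Tgfbr2 was 1.47, 2.04 and 1.79 in depleted lung macrophages, against 0.203, 0.196 and 0.175 in depleted lung fibroblasts. It was 3.26, 1.48 and 1.99 in control lung macrophages, against 0.1898, 0.1751 and 0.1587 in control lung fibroblasts. By this measure the type I receptor outweighed the type II receptor in every lung macrophage library and was outweighed by it in every lung fibroblast library. The undivided values had the same order. The length merges all annotated exons of a gene, not those of the transcripts expressed, so the ratios depend on it. Reads were few in macrophages, with 13 for Tgfbr1 and 11 for Tgfbr2 in depleted macrophages 1. In skin the ratio ran over 0.104, 1.25, 0.802 and 2.80 in depleted macrophages and 0.259, 1.37 and 0.294 in depleted fibroblasts, with overlap.

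Tgfbr3 (chromosome 5, 107106570 to 107289629) encodes betaglycan, the coreceptor that presents ligand to Tgfbr2. It had 0 reads in all 3 depleted lung macrophage libraries and 316.8, 250.7 and 288.3 in depleted lung fibroblasts, at least 62.6-fold lower in macrophages against the floor of 3 reads over the group (adjusted p = 1.19e-08). In control lung it had 3 reads over the macrophages and 144 over the fibroblasts, a ratio of 70.6 lower (95% interval 23.7 to 346.5; adjusted p = 7.99e-07). In skin it was 53.3, 4.84, 1.74 and 0.718 in depleted macrophages and 247.6, 167.3 and 170.2 in depleted fibroblasts (−4.95, adjusted p = 0.00493). Macrophages 1 stood above the other 3 macrophage libraries there and below every fibroblast library.

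The latent binders were lower in macrophages than in fibroblasts in all 3 comparisons, other than Ltbp3 in depleted lung, which did not pass. Ltbp4 (chromosome 7, 27305136 to 27337692), which also organises elastic fibres in lung, was 3.08, 9.31 and 26.5 in depleted lung macrophages and 534.3, 674.3 and 319.4 in depleted lung fibroblasts, 46.2-fold lower in macrophages (−5.53 ± 0.53, adjusted p = 4.49e-07). Those macrophage values rest on 0, 1 and 4 reads, so the size of that fold is uncertain. Its log2 value ran from −6.22 to −4.85 without 1 library. In control lung it had 3 reads over the macrophages and values of 635.9, 586.3 and 799.4 in the fibroblasts, a ratio of 216 lower (95% interval 73.5 to 1053; adjusted p = 2.73e-10). In skin it was 46.5, 5.22, 21.1 and 0.513 in depleted macrophages and 181.4, 170.8 and 392.6 in depleted fibroblasts (−4.54 ± 0.99, adjusted p = 0.00743).

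Ltbp1 (chromosome 17, 75005568 to 75392512), a binder of all 3 latent ligands, was 26.95, 23.0 and 13.6 in depleted lung macrophages and 156.9, 274.6 and 278.3 in depleted lung fibroblasts, 10.7-fold lower in macrophages (−3.42 ± 0.39, adjusted p = 3.40e-06). In control mice the log2 fold change was −4.34 ± 0.56 (adjusted p = 4.21e-06), and in skin of depleted mice −4.61 ± 0.62 (adjusted p = 0.000424), with 1.85 to 8.21 in macrophages and 60.05 to 194.5 in fibroblasts. Ltbp3 (chromosome 19, 5740904 to 5758532), known in mice for roles in bone and teeth, had 9.23, 3.10 and 26.5 in depleted lung macrophages and 30.6, 36.9 and 43.2 in depleted lung fibroblasts. The groups did not overlap but the difference did not pass (−1.83 ± 0.68, adjusted p = 0.0601); it passed without depleted macrophages 3 (−2.53, adjusted p = 0.0161). In control lung Ltbp3 had 3 reads over the macrophages and 42 over the fibroblasts, a ratio of 20.6 lower (95% interval 6.58 to 103.9; adjusted p = 0.00157). In skin it was 0.0809 to 7.17 in depleted macrophages and 46.8 to 88.25 in depleted fibroblasts (−4.82 ± 0.85, adjusted p = 0.00227).

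Tgfbi (chromosome 13, 56609523 to 56639562), a secreted adhesion protein named for its induction by TGF-beta, was the one gene higher in macrophages in both organs. It was 298.4, 356.8 and 344.5 in depleted lung macrophages and 23.8, 21.4 and 29.35 in depleted lung fibroblasts, 12.98-fold higher in macrophages (3.70 ± 0.32, adjusted p = 1.15e-07). In control lung it was 345.8, 325.1 and 299.9 in macrophages and 30.0, 31.8 and 30.3 in fibroblasts, 10.2-fold higher in macrophages (3.35 ± 0.34, adjusted p = 1.24e-07). In skin it was 683.9, 1269, 1361 and 1471 in depleted macrophages and 273.4, 528.3 and 417.6 in depleted fibroblasts, 2.92-fold higher in macrophages (1.55 ± 0.31, adjusted p = 0.00488). Lung fibroblasts held little Tgfbi and skin fibroblasts much, in tables that were normalised separately and were not tested against each other.

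**Figure D3:**
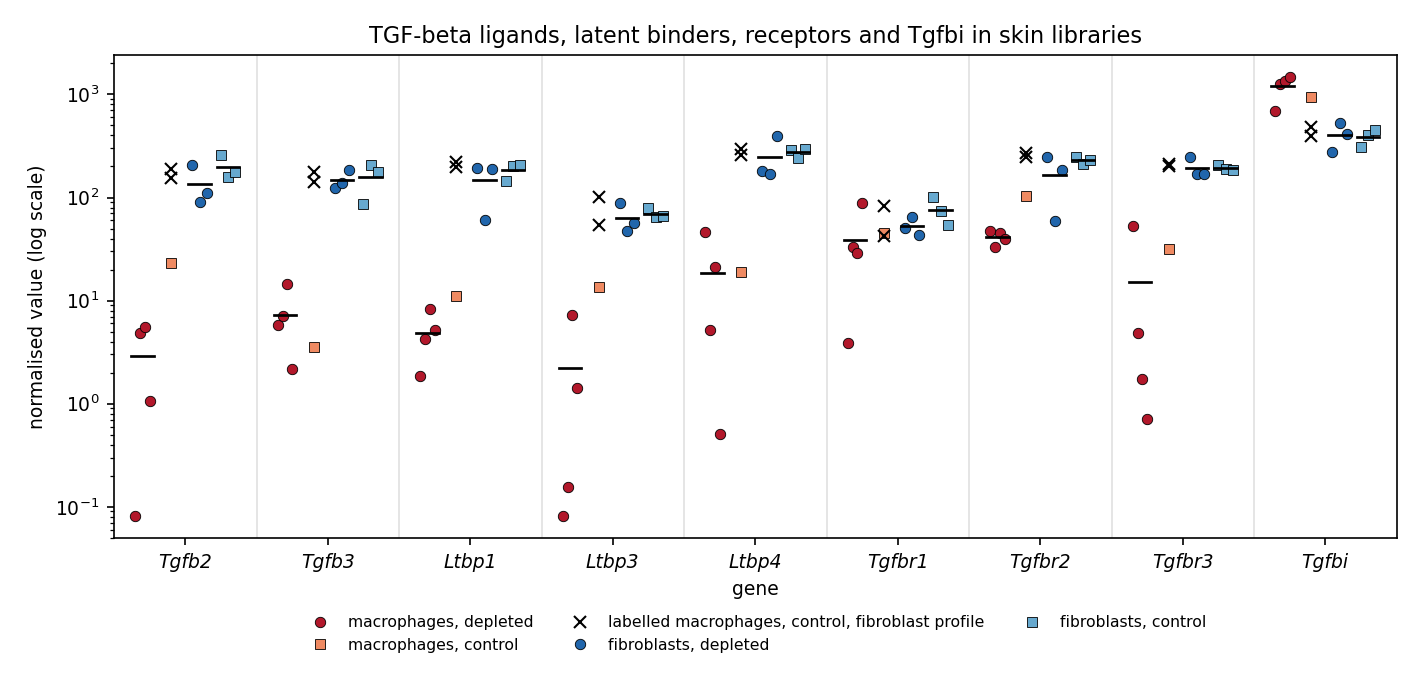
Deposited value of each gene on a log axis in each skin library, macrophages left of fibroblasts and depleted left of control mice, with crosses for the 2 libraries kept apart; short horizontal bars are group means. The libraries kept apart lie at or near the fibroblast points for every gene, and control macrophages are a single point.

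Set in order within a group by value per kilobase of exon, Tgfbi led in macrophages of both organs. In depleted lung macrophages it averaged 88.4 ± 8.17 per kilobase, followed by Tgfbr1 at 16.2 ± 4.43, Tgfbr2 at 9.24 ± 2.39 and Tgfb1 at 5.404 ± 3.171 (SD, n = 3). Tgfbr2 and Tgfb1 overlapped in their ranges, and the other 6 genes averaged 0.465 to 2.01, at the level of single reads. In depleted lung fibroblasts Ltbp4 led at 78.8 ± 27.7, followed by Tgfbr3 at 43.6 ± 5.07, Tgfbr2 at 33.95 ± 10.4 and Ltbp1 at 22.1 ± 6.46 (SD, n = 3). Tgfbr3, Tgfbr2 and Ltbp1 overlapped with their neighbours in that order, and the 3 ligands stood between 2.84 and 7.93.

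In depleted skin macrophages Tgfbi averaged 317.2 ± 93.2 per kilobase and no other gene exceeded Tgfbr1 at 5.93 ± 5.47 (SD, n = 4). In depleted skin fibroblasts Tgfbi led too, at 107.8 ± 33.9, followed by Tgfb3 at 43.96 ± 9.49, Ltbp4 at 38.4 ± 19.4, Tgfbr3 at 29.8 ± 6.96 and Tgfb2 at 23.3 ± 10.7 (SD, n = 3), each overlapping with the next. Control skin fibroblasts gave 103.1 ± 18.8 for Tgfbi, 46.5 ± 18.7 for Tgfb3 and 34.2 ± 9.39 for Tgfb2 (SD, n = 3). Tgfb3 and Tgfb2 were thus among the upper genes of the system in skin fibroblasts, whereas in lung fibroblasts Tgfb3 stood in the middle of the order and Tgfb1 and Tgfb2 at the bottom.

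Neutrophil depletion was then compared within each cell type, which asks whether these genes differ when neutrophils are removed. None of the 10 genes passed in lung macrophages or lung fibroblasts, and none of the 9 in skin fibroblasts or skin macrophages. Over all genes, limma called 0.497% in lung macrophages (0.0674% higher, 0.430% lower), 0.00843% in lung fibroblasts (all of it higher), 0.00% in skin fibroblasts and 0.00875% in skin macrophages (all of it higher). At an unadjusted p below 0.05, 1 of the genes passed in skin macrophages (Tgfbr2, unadjusted p = 0.0230) and 0 in each of the other comparisons, against 5.88% of all genes tested in skin macrophages, 7.94% in lung macrophages, 5.06% in lung fibroblasts and 2.40% in skin fibroblasts. The difference between the depletion effects in macrophages and fibroblasts passed for 0 genes of the system in either organ, with 0.0169% of all genes called in lung (5.50% at an unadjusted p below 0.05) and 0.00% in skin (4.21%).

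**Figure D4:**
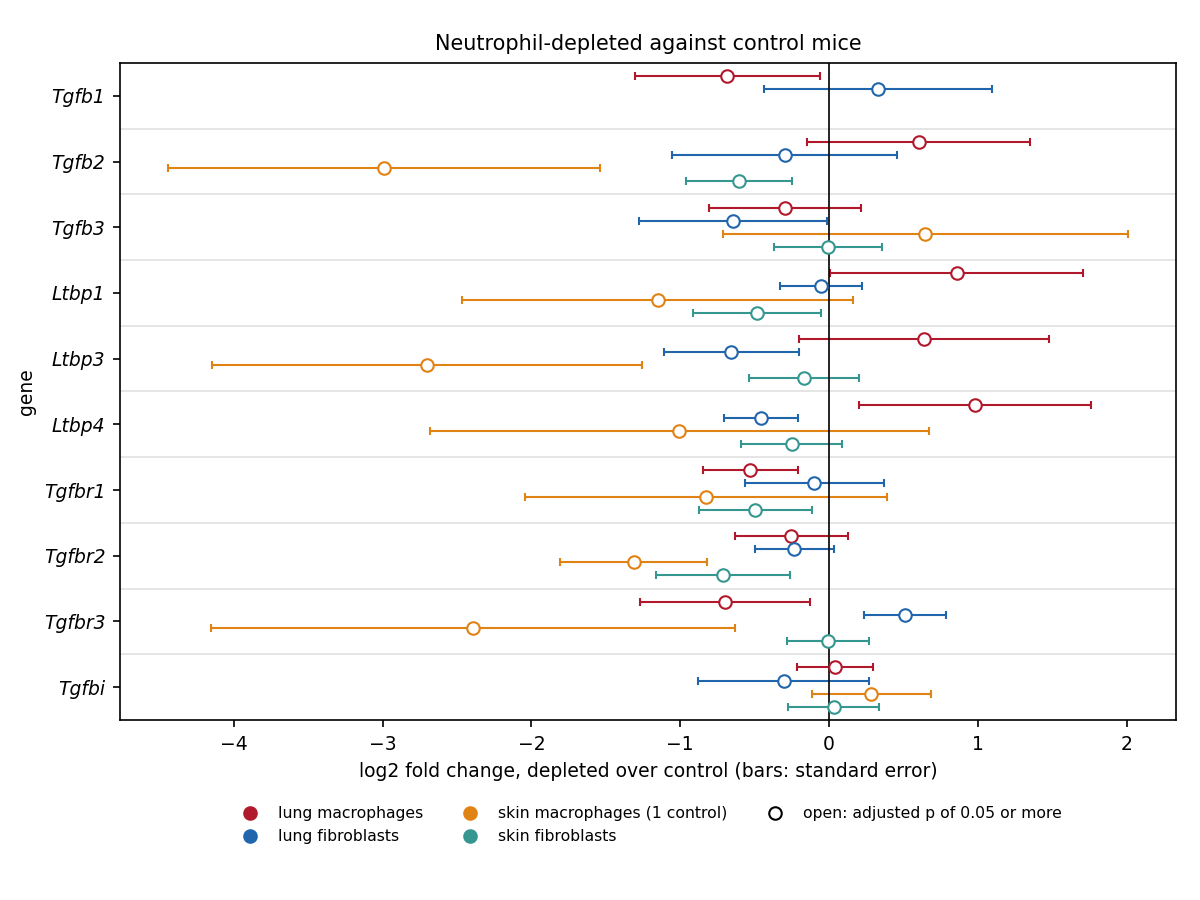
Log2 fold change of each gene, depleted over control, on the x axis, for macrophages and fibroblasts of lung and skin, with standard errors as bars. No point passed an adjusted p of 0.05, and the bars of skin macrophages, which rest on 1 control library, are the widest for every gene other than Tgfbi, with Tgfb2 lowest at −2.99.

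In lung macrophages Tgfbr1 had the smallest p of the 10. Its 83.05, 96.2 and 138.4 in depleted mice all lay below the 146.9, 157.3 and 145.5 in control mice (−0.53 ± 0.32, adjusted p = 0.701). It was the 1 gene of the 10 whose groups did not overlap, against 12.2% of all genes. Tgfb1 was 40.0, 9.31 and 32.45 in depleted mice and 61.7, 19.5 and 44.5 in control mice, with overlap (−0.68 ± 0.62, adjusted p = 0.844). Tgfbi differed least, at 298.4 to 356.8 in depleted and 299.9 to 345.8 in control mice (0.04 ± 0.25, adjusted p = 0.9849). The 10 genes had a median log2 fold change of −0.11 and a range from −0.70 to 0.98, and all genes a median of 0.04. The ends of that range rest on few reads. Ltbp4 had 5 reads in depleted mice and 3 in control mice, a ratio of 2.27 higher (95% interval 0.441 to 14.6). Tgfbr3 had 0 and 3 reads and Tgfb3 0 and 2, too few for a fold. Neutrophil markers summed to 1662 to 1980 ppm in these depleted libraries and 8561 to 17502 in the control libraries. They did not all fall. S100a8 was 895.1 to 1175 in depleted and 3741 to 10656 in control mice. Ly6g, on few reads, was 27.2, 18.1 and 42.3 in depleted and 16.3, 22.3 and 27.4 in control mice. B and plasma cell markers summed to 217.4 to 625.3 and 774.3 to 1942 ppm, and lung epithelial markers to 9199 to 21433 and 2034 to 8736. The part of all these markers in the values was not tested.

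In lung fibroblasts the largest values were Ltbp3 at −0.66 ± 0.45, Tgfb3 at −0.65 ± 0.63, Tgfbr3 at 0.51 ± 0.28 and Ltbp4 at −0.46 ± 0.25, with adjusted p of 0.969 or more. Tgfbr3 was 316.8, 250.7 and 288.3 in depleted mice and 150.1, 164.7 and 319.1 in control mice. Tgfbi was 23.8, 21.4 and 29.35 in depleted mice, all below the 30.0, 31.8 and 30.3 in control mice, on 3 to 8 reads a library (−0.31 ± 0.57, adjusted p = 0.988). It was the 1 gene of the 10 whose groups did not overlap, against 9.20% of all genes. The median of the 10 genes was −0.27 and that of all genes −0.01. Lung epithelial markers summed to 2008 to 5656 ppm in the depleted libraries and 564.5 to 2214 in the control libraries. Fibroblast markers summed to 8406 to 10670 and 9975 to 14252 ppm in the same order. Both sets of sums overlapped, and their part in the values was not tested.

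In skin fibroblasts the reads were ample, and the groups overlapped for all 9 genes, where 8.44% of all genes did not overlap. Tgfbr2 was 245.4, 58.8 and 186.5 in depleted mice and 246.5, 209.7 and 233.2 in control mice (−0.71 ± 0.45, adjusted p = 0.955). Tgfb2 was 205.7, 89.9 and 109.5 in depleted mice and 259.5, 156.6 and 177.5 in control mice (−0.61 ± 0.36, adjusted p = 0.955). Depleted fibroblasts 4 was the lowest of the 6 libraries for Tgfb2, Tgfbr2, Tgfbr3, Ltbp1, Ltbp3 and Ltbp4, and the highest for Tgfbi at 528.3. Without it Tgfbr2 had a log2 fold change of −0.10 and Ltbp1 of 0.07, against −0.48 ± 0.43 for Ltbp1 with it. Keratinocyte markers summed to 16666 ppm in depleted fibroblasts 4, 15864 in depleted fibroblasts 5, 1387 in depleted fibroblasts 2 and 3197 to 4527 in the control libraries. Fibroblast markers summed to 72062 to 98410 ppm in the depleted and 101988 to 137156 in the control libraries. Their part in these values was not tested. Tgfb3 and Tgfbr3 had fold changes within 0.01 of 0 on the log2 scale.

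In skin macrophages 4 depleted libraries were set against control macrophages 3 alone, so the spread comes from the depleted libraries. Tgfbr2 was 47.3, 33.2, 45.65 and 39.8 in depleted mice and 103.6 in the control library (−1.31 ± 0.50, adjusted p = 0.771). Tgfb2 was 0.0809, 4.84, 5.51 and 1.06 in depleted mice and 23.1 in the control library (−2.99 ± 1.45, adjusted p = 0.854). Ltbp3 was 0.0809, 0.157, 7.17 and 1.41 in depleted mice and 13.5 in the control library (−2.70 ± 1.45, adjusted p = 0.858). The depleted libraries lay below the control library for these genes and for Ltbp1, 4 of 9 genes, and above it for 0. Of all 12661 genes, 3100 lay below that single library in every depleted library and 3045 above it, together 48.5%. The 9 genes had a median of −1.15 against −0.12 for all genes. Tgfbi was 683.9, 1269, 1361 and 1471 in depleted mice and 943.1 in the control library (0.28 ± 0.40, adjusted p = 0.907). Fibroblast markers, all 16 of them in the table, summed to 394 to 1580 ppm in the depleted libraries and 2427 in the control library, and Pdgfra, a marker of the fibroblast gate, stood at 0.406 to 8.42 and 14.45. Keratinocyte markers summed to 1396 to 3398 ppm and 6357, mast cell markers to 4.20 to 90.2 and 335.2, platelet and megakaryocyte markers to 637.1 to 1163 and 2412, and T cell markers to 121.3 to 186.7 and 204.8, in the same order. B and plasma cell markers (252.5 to 501.9 and 228.2), endothelial markers (19.35 to 38.1 and 17.4) and macrophage markers (28059 to 35106 and 26328) were higher in the depleted libraries. Their part in the values of Tgfb2, Tgfbr2, Ltbp1 and Ltbp3 was not tested.

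Other genes of the pathway were counted in 5 lists, which also serve to show where the 10 genes sit. Among 16 latency and activation genes tested in lung, 2 were higher and 7 lower in macrophages of depleted mice and 2 higher and 8 lower in those of control mice, and in skin 3 of 17 were higher and 10 lower. Their median log2 fold change was −0.81 in depleted lung, −1.11 in control lung and −2.29 in depleted skin. Nrros, which tethers latent TGF-beta to the surface of myeloid cells, was higher in macrophages in each. In depleted lung it had 123 reads over the macrophages and 2 over the fibroblasts, a ratio of 63.2 higher (95% interval 17.1 to 527.6; adjusted p = 4.51e-07). It was higher by 4.42 ± 0.47 (adjusted p = 2.22e-07) in control lung and 7.86 ± 0.42 (adjusted p = 7.67e-07) in depleted skin, on the log2 scale. Its mean was 252.1 ± 54.7 in depleted lung macrophages and 5.92 ± 4.24 in depleted lung fibroblasts, and 322.6 ± 101.1 in depleted skin macrophages (SD, n = 4) and 0.348 ± 0.182 in depleted skin fibroblasts (SD, n = 3 unless stated). Fbn1, the microfibril protein that Ltbp proteins attach to, was lower in macrophages of depleted lung (−3.74 ± 0.55, adjusted p = 5.78e-05) and depleted skin (−7.01 ± 0.55, adjusted p = 1.13e-05). In control lung it had 2 reads over the macrophages and 96 over the fibroblasts, a ratio of 70.6 lower (95% interval 19.0 to 591.5; adjusted p = 3.84e-07). Mmp2, a gelatinase of stromal cells, had 0 reads in every lung macrophage library and was at least 35.4-fold lower in macrophages of depleted lung (adjusted p = 8.09e-07) and at least 67.7-fold lower in those of control lung (adjusted p = 1.225e-08). In skin, Mmp2 was lower too (−5.81 ± 0.39, adjusted p = 3.50e-06). Itgb1, the shared integrin chain, was lower in macrophages of depleted lung (−1.26 ± 0.26, adjusted p = 0.00147). The count of higher genes in depleted lung was 1 without macrophages 3, fibroblasts 2 or fibroblasts 3, and the count of lower genes was 4 without fibroblasts 1.

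Mmp9, a gelatinase able to release TGF-beta and abundant in neutrophil granules, was the one listed gene that passed in a depletion comparison. In lung macrophages it averaged 13.05 ± 6.55 in depleted mice and 175.5 ± 71.95 in control mice (SD, n = 3 each; −3.64 ± 0.49, adjusted p = 3.44e-06). The call was lost without control macrophages 2 (−3.43, adjusted p = 0.0979) or 3 (−3.44, adjusted p = 0.0659). The sum of neutrophil markers given above, a list that holds Mmp9 itself, was lower too. The part of such markers was not tested. Against control lung fibroblasts, which had 0 reads, Mmp9 was at least 28.99-fold higher in control lung macrophages (adjusted p = 1.47e-07). In depleted skin it was higher in macrophages by 5.18 ± 0.70 (adjusted p = 0.000431).

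Of 19 genes for coreceptors and signal transduction in lung, 2 were higher and 3 lower in macrophages in each genotype, and of 20 in skin 1 was higher and 3 lower, so most did not pass. Their median log2 fold change was −0.11 in depleted lung, −0.51 in control lung and −0.29 in depleted skin. Pmepa1, a feedback inhibitor induced by TGF-beta, was lower in macrophages of control lung (−3.28 ± 0.59, adjusted p = 0.000225) and depleted skin (−3.20 ± 0.88, adjusted p = 0.0243). In depleted lung it had 2 reads over the macrophages and 44.9 over the fibroblasts, a ratio of 21.8 lower (95% interval 5.72 to 186.4; adjusted p = 0.00320). The inhibitory Smad7 was lower in lung of both genotypes, at −2.81 ± 0.59 in depleted and −2.87 ± 0.63 in control mice (adjusted p = 0.00181 and 0.00155). Smad3, a mediator of the receptor signal, had 1 read over the macrophages and 35 over the fibroblasts of depleted lung. That is a ratio of 34.1 lower (95% interval 5.73 to 1383, adjusted p = 0.00124). In control lung Smad3 did not pass (−1.53), other than without control fibroblasts 2 (−2.14, adjusted p = 0.0244). The corepressor Tgif1 was higher by 1.83 ± 0.51 in depleted lung (adjusted p = 0.0133) and 3.04 ± 0.63 in control lung (adjusted p = 0.000926), and the corepressor Skil by 1.29 ± 0.28 in control lung (adjusted p = 0.00168). In skin the corepressor Ski was lower (−1.65 ± 0.32, adjusted p = 0.00382), as was Smad5, a mediator of BMP signals (−1.94 ± 0.63, adjusted p = 0.0474), and Fkbp1a, which binds the type I receptor, was higher by 0.77 ± 0.22 (adjusted p = 0.0262). In depleted lung the call of Tgif1 was lost without macrophages 3 (1.59), fibroblasts 2 (1.62) or fibroblasts 3 (1.57), and that of Pmepa1 without fibroblasts 1 (−2.70) or 2 (−2.62), and the count of higher genes was 0 or 1 without macrophages 3 or any 1 fibroblast library. In skin the call of Pmepa1 was lost without fibroblasts 2 (−2.69), macrophages 2 (−3.13) or macrophages 5 (−2.91), that of Fkbp1a without fibroblasts 4 (0.59), fibroblasts 5 (0.81), macrophages 2 (0.80) or macrophages 3 (0.70), and that of Smad5 without any 1 library other than macrophages 1 or fibroblasts 4 (−2.32 to −1.72 over the 7 fits).

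Of 20 response genes in lung, 3 were higher and 12 lower in macrophages in each genotype, and of 24 in skin 0 were higher and 18 lower. Their median log2 fold change was −2.35 in depleted lung (−2.21 with the 3 genes at 0 reads put at their bounds), −3.02 in control lung (−2.97) and −3.46 in depleted skin. Collagen chains led. Col3a1 had log2 fold changes of −6.33 ± 0.39 in control lung (adjusted p = 6.81e-11) and −6.92 ± 0.40 in depleted skin (adjusted p = 1.34e-06). In depleted lung it had 1 read over the macrophages and 488.8 over the fibroblasts, a ratio of 475.7 lower (95% interval 85.0 to 18836; adjusted p = 8.52e-10). It was followed by Col1a2, Col1a1, Eln in lung and Postn in skin. Col1a1, Col1a2 and Col3a1 are markers of fibroblasts as well and were in the marker list used above. The count of higher genes in depleted lung was 1 without fibroblasts 1. Of the matrix binders and antagonists, which include decorin and biglycan as proteins that hold TGF-beta in the matrix, 0 of 9 were higher and 9 lower in depleted lung, 0 and 8 of 9 in control lung, and 0 and 9 of 12 in depleted skin. Their median log2 fold change was −3.43 in depleted lung (−3.23 with 4 genes at their bounds), −3.65 in control lung (−3.56) and −5.39 in depleted skin. Bgn averaged 39.25 ± 14.8 in depleted lung macrophages and 1718 ± 214.7 in depleted lung fibroblasts (SD, n = 3 each; −5.47 ± 0.28, adjusted p = 1.73e-10). Dcn, Fstl1 and Lum were next in lung, and Lum, Fstl1 and Fmod in skin.

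Of 9 other ligands and receptors of the superfamily in lung, 1 was higher and 3 lower in macrophages of depleted mice and 1 higher and 5 lower in those of control mice, and of 14 in skin 1 was higher and 8 lower. Their median log2 fold change was −1.96 in depleted lung (−1.69 with 3 genes at their bounds), −3.01 in control lung and −3.44 in depleted skin. Gdf15, a stress-induced ligand, had 64.2 reads over the macrophages and 1 over the fibroblasts of depleted lung, a ratio of 65.9 higher (95% interval 11.4 to 2637; adjusted p = 8.38e-06). Bmp5, a bone morphogenetic protein, had 0 reads in every lung macrophage library and was at least 18.0-fold lower in macrophages of depleted lung (adjusted p = 1.70e-05) and at least 16.2-fold lower in those of control lung (adjusted p = 0.000163). In depleted skin it had 1.40 reads over the macrophages and 5741 over the fibroblasts, a ratio of 5404 lower (95% interval 1357 to 298898; adjusted p = 3.76e-05). Bmp4 and Bmpr1a were lower in lung of both genotypes, Gdf10 in control lung and skin, and Bmp1 and Bmpr1a in skin. The single higher gene of control lung, Gdf15, was named after its value was seen. It had 66 reads over the macrophages and 1 over the fibroblasts, a ratio of 44.9 higher (95% interval 7.78 to 1798), and kept its call only in the fit without control macrophages 3, with log2 fold changes from 1.47 to 2.98 in the other 5. Gdf15 was also the single higher gene in skin, and lost that call without depleted fibroblasts 5 (2.93, adjusted p = 0.0678).

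In the depletion comparisons no listed gene other than Mmp9 passed. The lowest p of each list belonged in lung macrophages to Fkbp1a at 0.70 ± 0.26, Gdf15 at 2.14 ± 0.63 (adjusted p = 0.158), Tgfb1i1, with 4 reads in depleted and 0 in control mice (at least 1.82-fold higher in depleted mice), and Lum, with 1 and 0 reads. Gdf15 passed there without depleted macrophages 3 (2.18, adjusted p = 0.00816). In lung fibroblasts they belonged to Emilin1 at −1.13 ± 0.45, Smad1 at 1.04 ± 0.59, Junb at −1.05 ± 0.32 (adjusted p = 0.654), Htra1 at −0.93 ± 0.66 and Bmp5 at 0.77 ± 0.40. In skin fibroblasts they belonged to Ltbp2 at −2.30 ± 1.24, Acvrl1 at −2.09 ± 1.14, Tnc at −0.69 ± 0.32, Fmod at 0.44 ± 0.29 and Bmp5 at 0.65 ± 0.38, each with an adjusted p of 0.955. In skin macrophages they belonged to Fn1 at 1.202 ± 0.298 (adjusted p = 0.529), Ski at −0.93 ± 0.50, Dcn at −2.003 ± 0.812 and Bmp1 at −3.11 ± 1.23.

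The genes whose profile over the libraries was most like a gene of the system were found by the root mean square difference of centred log2 values, a description over 12 lung or 11 skin libraries that all genes share. In lung Tgfbi was nearest to Ly6e (0.239), Sh3bgrl3 (0.284) and Pfn1 (0.294), where the median over all genes was 1.96. Tgfbr2 was nearest in lung to Mmd (0.239), Sdc4 (0.284) and Lrp1 (0.348), with a median of 1.25, and in skin to Mprip (0.348), Cpq (0.358) and Nfic (0.388), with a median of 1.48. In skin Tgfbi was nearest to Atp6v1a (0.214), Ints12 (0.260) and Btg1 (0.276), with a median of 1.39.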

How the data were processed

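Bulk RNA-seq libraries were made from sorted cells with the Ovation Single Cell RNA-Seq System, per the labels' protocols, and read single-end. The gate for lung interstitial macrophages took CD45, CD68, F4/80 and CD11b without CD11c, that for skin macrophages CD45, CD11b, CD68 and F4/80, and that for fibroblasts PDGFRA without CD45, CD31 and EPCAM, with CD90.1 in skin. The submitters' processing notes name limma 3.46, RSEM 1.7.1, cutadapt 1.7.1, CASAVA 1.8 and mm10, in no stated role. The authors deposited 1 table of linear normalised signal per organ; within a library the deposited signal equals a constant times the sum of estimated reads and 0.5, as read from the values. Whole reads (tolerance 0.01) came out for 70.0 to 82.2% of genes in lung and 27.4 to 58.0% in skin, so no count model was used. Tables were normalised separately and tested separately. Of the columns, 0 went unused.

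Identifiers were named through a table of gene names (11829 of 11867 in lung, 12641 of 12661 in skin), and coordinates and exon lengths are from GENCODE M21. Fits used limma 3.58.1 in R 4.3.3 (two-sided, lmFit then eBayes with trend) on the log2 of the signal after adding 1 part in 1000000 of the mean library total (1.04 in lung, 1.001 in skin). Genes entered with at least 1 part in 1000000 in a number of libraries no lower than the size of the smaller group. The fitting step was tested on simulated data. Skin control macrophages 1 and 5 were left out of all main fits, and with 1 control library left no test of skin macrophages against fibroblasts was made in control mice. The members and lists were chosen with earlier results of these data known. Named are all members, up to 4 called genes of each list by lowest p (up to 2 where none passed; the first is given for most lists), and the 3 nearest profiles of Tgfb1 (not reported here), Tgfbr2 and Tgfbi. Alternatives covered the pseudocount, the filter, quantile normalisation, the variance trend, a model of 4 groups, the replicate block, the labelled skin groups and leaving out each library. A floor of 3 reads over the group stands for 0 reads, and 95% intervals are exact (Clopper-Pearson).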

Additional observations from a re-analysis of the deposited data

Results flagged for a closer look

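In the 4 depleted skin macrophage libraries, Tgfbr3 stood at 53.3 in macrophages 1, against 4.84, 1.74 and 0.718 in the other 3. The gap to the nearest library was 0.9215 of the whole range, above Dixon's 95% critical value for 4 samples. Such a gap was looked for in the 9 genes of that group, the only one of 4 or more libraries, and found in 1. The rule was applied to linear values, and its rate of about 1 in 20 assumes normally distributed, independent values. That rate need not hold for these 9 genes, which share the same 4 libraries. A single case among 9 is thus not taken as rare, and how often chance gives it was not tested. The same library had the highest Ltbp4 (46.5), the lowest Tgfbr1 (3.92), 0 reads of Tgfb2 and Ltbp3, and the fewest reads of the skin libraries (6553115). Its fibroblast markers summed to 1228 ppm of the library, within the 394 to 1580 of the group.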

How the results depend on the processing

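The tests are limited by depth in lung, where most macrophage values of the ligands, Tgfbr3 and the latent binders rest on 0 to 10 reads, and by 1 control library in skin macrophages. With 3 libraries a group, a difference that did not pass is not shown to be absent. Leaving out 1 library kept 354 of 393 values of the members on the same side with the same direction, and the other alternatives 395 of 402. The second count is partly fixed in advance. Every lung gene passed the filter, so lifting it changed nothing there. Dropping the variance trend or fitting 4 groups could not turn a direction, only a call.

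Genes called over the whole table moved most. In lung macrophages, depleted against control, 59 were called, and 27 with quantile normalisation, 0 without the variance trend, 18 in the model of 4 groups and 11 to 70 without 1 library. In lung fibroblasts 1 was called, and 0 with quantile normalisation, without the trend and in the model of 4 groups, and 0 to 7 without 1 library. In skin fibroblasts 0 were called, and 0 to 16 without 1 library. In skin macrophages 1 was called, and 62 without the filter, 2 with quantile normalisation, 0 without the trend, in the model of 4 groups or with the libraries as labelled, and 2 to 30 without 1 library. The lung interaction called 2, and 6 with the larger pseudocount, 1 with quantile normalisation, 0 without the trend and 1 to 6 without 1 library. The cause was not tested.

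In depleted lung, members higher in macrophages numbered 2, and 1 without the trend, where Tgfbr1 was not called (1.31), and 1 to 2 without 1 library. Tgfb3 was not called there with quantile normalisation (−2.35, adjusted p = 0.0881) or without the trend (adjusted p = 0.0512), nor Tgfbr2 in skin without the trend (adjusted p = 0.0577). With the skin libraries as labelled, Tgfb3 in skin macrophages was −2.76 in place of 0.65, since both control libraries kept apart hold fibroblast levels. Directions of uncalled depletion values turned without 1 library. In lung fibroblasts the ranges were −0.19 to 0.22 for Ltbp1, −0.82 to 0.14 for Tgfb2, −1.22 to 0.22 for Tgfb3, −0.32 to 0.11 for Tgfbr1 and −0.44 to 0.0163 for Tgfbr2. In lung macrophages they were −0.0718 to 1.31 for Ltbp3, −0.79 to 0.355 for Tgfb3, −0.0133 to 0.12 for Tgfbi and −0.57 to 0.0401 for Tgfbr2. In skin fibroblasts they were −0.77 to 0.0694 for Ltbp1, −0.42 to 0.0282 for Ltbp3, −0.39 to 0.24 for Tgfb3, −0.18 to 0.29 for Tgfbi and −0.19 to 0.0927 for Tgfbr3.

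Deviations of same-numbered libraries correlated between −0.11 and 0.06 in lung and between −0.04 and 0.15 in skin, where only 2 numbers are shared. Between macrophages and fibroblasts of depleted skin the highest was 0.15 for same-numbered and 0.07 for differently numbered libraries. In depleted lung these were 0.03 and 0.02. Elsewhere the highest belonged to differently numbered libraries. It was 0.19 against 0.08 in skin fibroblasts, depleted against control, and 0.17 against 0.06 between macrophages and fibroblasts of control lung. With so few libraries, such correlations cannot tell whether same-numbered libraries were paired. With the replicate block, genes called numbered 4 in lung fibroblasts and 84 in skin fibroblasts, Ltbp3 passed in depleted lung (−1.83, adjusted p = 0.0299), and Tgfbr1 in skin macrophages against fibroblasts was 0.20 in place of −1.04. No block was possible for skin macrophages and the skin interaction, which share fewer than 2 numbers.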
